A study of Homo sapiens with 16 samples.

Results

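ATAC-seq maps open chromatin with the Tn5 transposase, which inserts adapters where DNA is not wrapped on nucleosomes. The cells described here are DND41 after 3 h of 100 nM ACBI-1 against DMSO, with 2 libraries in each arm out of 16 libraries in the series. DND41 is an established human T-cell acute lymphoblastic leukaemia line, and MOLT4, the other line of the series, is a second one. The remaining 12 libraries hold DND41 at 24 h and MOLT4 at 3 h and 24 h, each with DMSO or 100 nM ACBI-1 and 2 libraries a group. All cells grew in RPMI-1640 with serum. The members are the regions obtained by merging peaks of the 4 DND41 libraries of 3 h on chromosomes 1 to 22 and X that share 1 base or more. There were 59150 such regions, where merging all 16 libraries gave 131357. A region was lost if both DMSO libraries and neither ACBI-1 library had a peak, gained in the reverse case, and kept if all 4 had one.

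ACBI-1 is a PROTAC, a molecule that holds a target protein against an E3 ubiquitin ligase so that the proteasome destroys it. Its targets are SMARCA4 and SMARCA2, the alternative motor subunits of the SWI/SNF (BAF) chromatin remodelling complexes, and PBRM1, a bromodomain subunit of the PBAF form. SWI/SNF slides and evicts nucleosomes, and many enhancers need its continuous activity to stay accessible to transcription factors, while CpG-rich promoters are known to depend on it less.

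All 4 libraries carry MOLT4 in their cell line field, whereas the titles and the code in the peak names gave DND41, which is used here. Each library shared more regions with the 24 h libraries of DND41 than with those of MOLT4 in its own arm. Shared regions made up 53.3% and 50.7% of all regions of the pair (mean over 2 partners) for DMSO replicates 1 and 2 with DND41, against 44.4% and 43.3% with MOLT4. For ACBI-1 replicates 1 and 2 they made up 45.6% and 46.4%, against 39.0% and 38.8%. ACBI-1 replicate 1 shared as much with the 3 h ACBI-1 libraries of MOLT4 (45.7%) as with its own line at 24 h. Only positions of peaks are used here, so read depth is unknown, and the absence of a peak does not show that a site was closed. Whether the 2 libraries of an arm came from separate cultures is not in the labels, and the p-values reflect library-to-library spread alone, which may be technical.

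The ACBI-1 libraries of DND41 at 3 h held fewer peaks than the DMSO libraries. The lists held 45942 and 39123 peaks with DMSO and 26145 and 31380 with ACBI-1. The arms did not overlap, and the ratio was -0.57 on the log2 scale, a change of -32.4%, with an exact permutation p of 0.333 that is the smallest 2 against 2 libraries can give. Peaks covered 18.996 and 14.202 Mb with DMSO and 10.415 and 14.201 Mb with ACBI-1. The second library of each arm thus covered nearly the same length, although the DMSO list held more peaks. The peaks of DMSO replicate 2 were narrower, with a median width of 282 bp against 370.5 bp in ACBI-1 replicate 2. The other medians were 328 bp in DMSO replicate 1 and 319 bp in ACBI-1 replicate 1.

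Loss far outnumbered gain. Of the 59150 regions, 6751 were lost (11.4%) and 231 were gained (0.391%), both by the rule itself and without a test. The lost regions were 21.1% of the 32031 regions that both DMSO libraries had. A further 19499 of these (60.9%) were kept, and 5781 (18.0%) had a peak in 1 ACBI-1 library, which was replicate 2 at 4353 regions and replicate 1 at 1428. Regions in both DMSO libraries lacked a peak in 34.7% of cases in ACBI-1 replicate 1 and in 25.5% in replicate 2. The remaining 26888 regions were in 1 DMSO library, or in none and 1 ACBI-1 library. Of these, 16191 were in 1 DMSO library alone and 6878 in 1 ACBI-1 library alone.

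The number lost depends on the lists compared. With 1 DMSO library in place of 2, more regions qualified, 12530 without DMSO replicate 1 and 17383 without DMSO replicate 2. It was 8174 without ACBI-1 replicate 1 and 11131 without ACBI-1 replicate 2. As a share of regions in the DMSO list or lists used, the loss was 32.5% and 38.0% without DMSO replicate 1 or 2, and 25.5% and 34.7% without ACBI-1 replicate 1 or 2. Gained regions numbered 871 and 329 without DMSO replicate 1 or 2, and 4308 and 3065 without ACBI-1 replicate 1 or 2. When every list was shortened to its 26145 widest peaks, 1737 regions were lost (8.38% of those in both DMSO libraries) and 1011 gained. That setting does not equalise the lists, since the shortest peak left was 292 and 206 bp in DMSO replicates 1 and 2 and 135 and 211 bp in ACBI-1 replicates 1 and 2. Of the 1011 gained there, 848 (83.9%) had a peak in at least 1 full DMSO list.

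Lost regions were narrow sites. Their peaks had a median width of 242 bp in DMSO replicate 1 and 189 bp in replicate 2. Regions with a peak in 1 ACBI-1 library had 324 and 234 bp, and kept regions had 576 and 467 bp in the same libraries. Regions found in 1 DMSO library alone were narrower still, at 185 bp for replicate 1 and 168 bp for replicate 2. Narrow width is thus not particular to lost regions. The percentage lost fell steadily over 10 equal bins of mean DMSO peak width. In the narrowest bin (132.5 to 188 bp) 62.9% of 3204 regions were lost and 11.9% kept. In the fifth bin (321.5 to 377.5 bp) 17.5% were lost and 56.7% kept. In the broadest bin (813.5 to 2894 bp) 0 of 3203 were lost and 99.7% kept. Both ACBI-1 libraries followed this order. Replicate 1 had a peak at 19.2%, 62.3% and 99.8% of the regions of these 3 bins, and replicate 2 at 29.9%, 76.9% and 99.9%. Between the narrow and the broad tertile the percentage lost differed by 47.7 points, with 48.5% against 0.796%. With lists of the 26145 widest peaks that difference was 20.15 points, and the tertiles lost 20.5% and 0.333%.

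**Figure D1:**
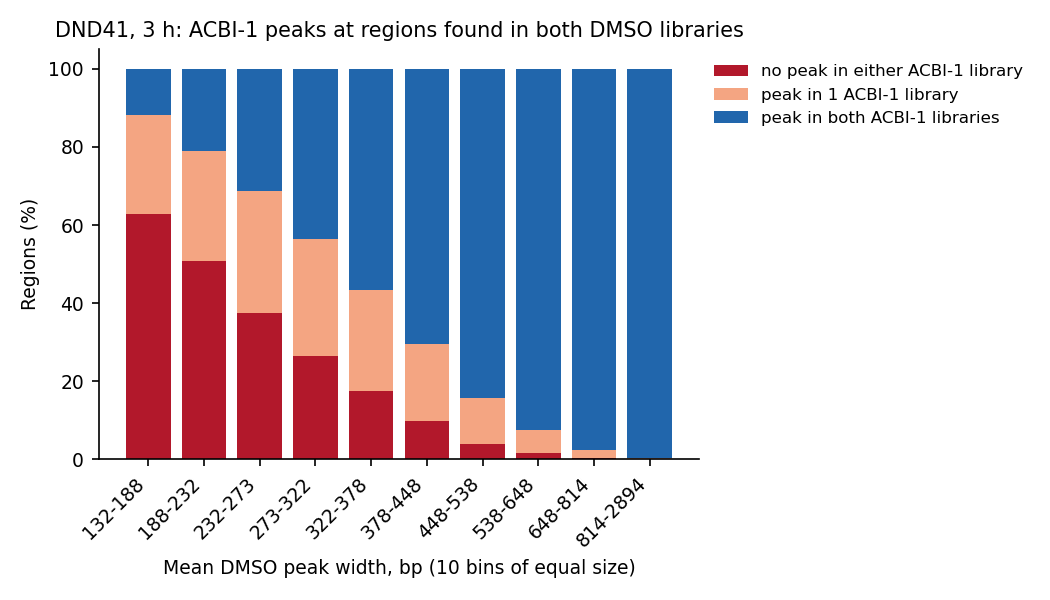
Stacked bars give the percentage of regions with 2 DMSO peaks in DND41 at 3 h that had a peak in neither, 1 or both ACBI-1 libraries, in 10 bins of equal size by mean DMSO peak width (bp). The lost share falls from 62.9% in the narrowest bin to 0 in the broadest.

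The widest lost regions had peaks well above these medians. At chr8:26297747-26298596 (hg19, as are all positions here) the DMSO peaks spanned 850 and 631 bp and there was none with ACBI-1. In the libraries not used to choose it, it had a peak in 5 of 6 DMSO and 1 of 6 ACBI-1 libraries. At chr7:25068022-25068960 the DMSO peaks spanned 924 and 479 bp. This region was found in all 6 other DMSO libraries and in 2 of 6 ACBI-1 libraries, both of MOLT4 at 3 h. These 2 regions were lost again in DND41 at 24 h.

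The others of the 5 widest did not all follow. At chr17:64298200-64299287, where the DMSO peaks spanned 1088 and 295 bp, all 12 other libraries had a peak, so its loss was seen only in the 3 h libraries that defined it. Likewise chrX:128788227-128789092 (866 and 494 bp) was kept in DND41 at 24 h. A peak at chr7:73508599-73509443 (845 and 518 bp) was found in both DMSO libraries and 1 ACBI-1 library of DND41 at 24 h, and in no MOLT4 library.

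Kept regions are those with a peak in both ACBI-1 libraries, so their widths describe only the peaks that remained. Their median peak width was 576 and 467 bp in DMSO replicates 1 and 2 and 420 and 523 bp in ACBI-1 replicates 1 and 2. The median difference of mean log2 widths, ACBI-1 minus DMSO, was -0.11 with an exact permutation p of 0.667, where 0.333 is the smallest possible. By bin of DMSO width the median was 0.46 in the narrowest of the 10 bins, -0.18 in the sixth and -0.11 in the broadest. Since the bins were formed on the DMSO widths that enter the difference, these signs cannot show a change that depends on width. Over all kept regions the median difference was 0.0015 without DMSO replicate 1 and 0.0067 without ACBI-1 replicate 1. It was -0.24 without the second replicate of either arm. The libraries of 1 arm differed by more, with a median log2 ratio of -0.22 for DMSO replicate 2 over 1 and 0.24 for ACBI-1 replicate 2 over 1. In 5099 kept regions (26.15%) both ACBI-1 peaks were narrower than both DMSO peaks, in 1016 (5.21%) both were wider, and in 13384 (68.6%) the arms overlapped. Few kept regions broke into several peaks: 1.08% and 3.24% held more than 1 peak in DMSO replicates 1 and 2, and 2.84% and 1.24% in ACBI-1 replicates 1 and 2.

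At single kept regions the difference in width was larger, given here as values without a test. Among the 7658 with 1 peak per library and DMSO peaks over 500 bp, the strongest narrowing was at chr1:113304579-113305290. Its peaks were 515 and 646 bp with DMSO and 140 and 163 bp with ACBI-1, a mean log2 difference of -1.93. A region at chr17:70715526-70716282 went from 757 and 520 bp to 179 and 167 bp, and a region at chr11:48076934-48077888 from 955 and 889 bp to 285 and 266 bp. Regions at chr6:67340759-67341635 and chr4:110280104-110280642 had log2 differences of -1.69 and -1.67. At all 5 the arms did not overlap. In DND41 at 24 h all 5 had a peak in both DMSO libraries and in neither ACBI-1 library. Of all kept regions that both of those DMSO libraries had, 9.44% had no ACBI-1 peak there. In width bins 7 to 10 that share was 0.188% to 9.49%.

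Widening among the same 7658 regions is given likewise, and since they had to be broad with DMSO and not with ACBI-1, the sizes of narrowing and widening cannot be compared. A region at chr9:22079401-22080465 had peaks of 679 and 551 bp with DMSO and 779 and 1065 bp with ACBI-1, a mean log2 difference of 0.57. It had the largest value, and the next were at chr1:51701665-51702588 (0.54), chr4:178147563-178148718 (0.49), chr7:148637748-148638823 (0.46) and chr1:229693750-229695070 (0.46). The arms overlapped on chromosome 7, at 968 and 540 bp against 933 and 1061 bp, and did not overlap at the other 4. All 5 had a peak in every DND41 library of 24 h, and 4 of them in all 8 MOLT4 libraries. This is usual for kept regions of such DMSO widths. Of those in width bins 8 to 10, 99.1% to 100% had a peak in both DMSO libraries of DND41 at 24 h. Among the latter, 0.188% to 4.50% had none with ACBI-1. Of all kept regions, 61.8% had a peak in all 12 other libraries.

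The regions were then scored in the 12 libraries that played no part in choosing them. Regions lost at 3 h in DND41 were again found less often with ACBI-1. In DND41 at 24 h, 56.7% and 52.9% of the lost regions had a peak in the DMSO libraries and 13.7% and 12.8% in the ACBI-1 libraries. In MOLT4 at 3 h the values were 50.4% and 47.4% against 21.6% and 23.9%. In MOLT4 at 24 h they were 39.7% in both DMSO libraries against 16.8% and 14.7%. The arms did not overlap in any of the 3 settings. Over the 6 DMSO libraries the mean was 47.8 ± 6.99% (SD, n = 6), and over the 6 ACBI-1 libraries 17.3 ± 4.53% (SD, n = 6). The difference was -30.5 percentage points, with labels exchanged within line and time (two-sided exact permutation p = 0.00926, adjusted 0.0123 over 8 such tests). That p is the smallest the 216 exchanges can give. As background, the share of all 59150 regions with a peak also fell in these libraries, from 51.05 ± 4.39% with DMSO (SD, n = 6) to 37.9 ± 2.48% with ACBI-1 (SD, n = 6), a difference of -13.1 points that was not tested. By setting it was -16.3 points in DND41 at 24 h, -11.7 in MOLT4 at 3 h and -11.3 in MOLT4 at 24 h.

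Kept regions fell too, but by less. They had a peak in 91.2 ± 4.64% of cases with DMSO (SD, n = 6) and in 80.3 ± 4.615% with ACBI-1 (SD, n = 6), a difference of -10.9 points (exact permutation p = 0.00926, adjusted 0.0123). The change for lost regions minus that for kept regions was -19.6 points, with values of -29.2 in DND41 at 24 h, -17.6 in MOLT4 at 3 h and -12.1 in MOLT4 at 24 h (exact permutation p = 0.00926, adjusted 0.0123). As a log2 ratio of lost to kept percentages the change was -1.31 with the same p. Choosing the regions with 1 DMSO list gave a smaller contrast. Without DMSO replicate 1 at 3 h the change for lost regions was -18.8 points and its difference from kept regions -7.975, and without DMSO replicate 2 they were -20.1 and -9.42, all with an exact permutation p of 0.00926.

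The difference from kept regions was also present at matched width. Averaged within the 10 width bins it was -16.4 points (exact permutation p = 0.00926). Kept regions of the widths of the lost ones had a peak in 72.8 ± 9.80% of cases with DMSO (SD, n = 6) and in 58.7 ± 7.83% with ACBI-1 (SD, n = 6). Even at equal width, lost regions were thus found less often than kept regions in the other DMSO libraries, at 47.8% against 72.8%. Regions with a peak in 1 ACBI-1 library at 3 h lay between lost and kept ones, at 64.9 ± 10.35% with DMSO (SD, n = 6) and 36.2 ± 4.85% with ACBI-1 (SD, n = 6). Their change was -28.7 points, and that of lost regions minus theirs was -1.84 points (exact permutation p = 0.0556, adjusted 0.0635), which did not pass the threshold.

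**Figure D2:**
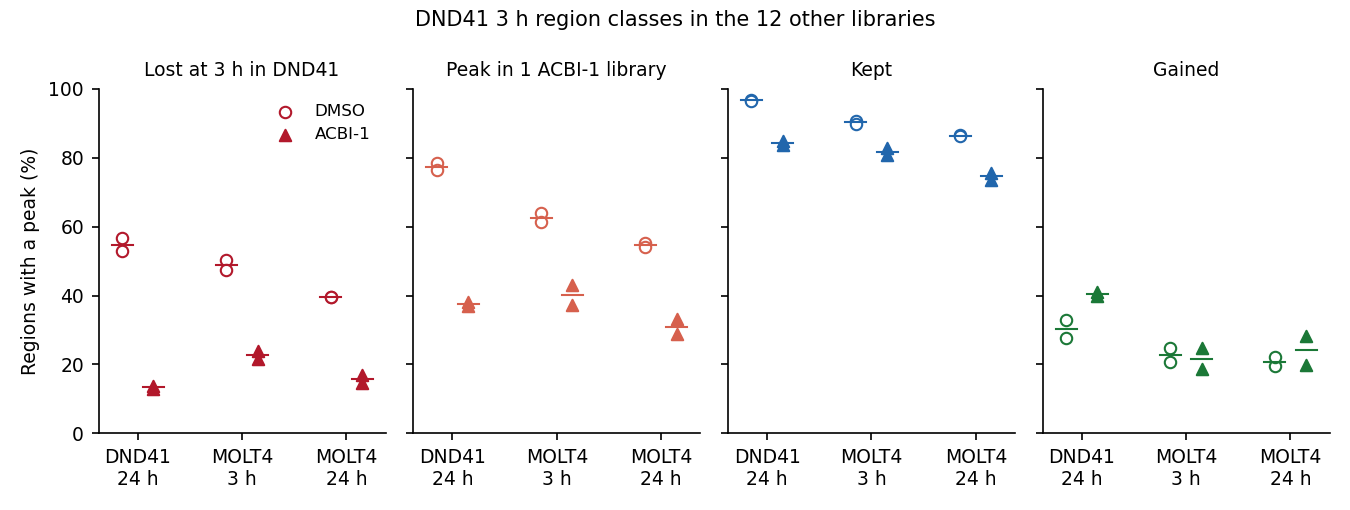
Each point is 1 of the 12 libraries not used to choose the regions, and its height is the percentage of DND41 3 h regions of a class that had a peak there (open circles DMSO, filled triangles ACBI-1, bars the mean of 2). Both ACBI-1 libraries lie below both DMSO libraries for lost regions, kept regions and those with a peak in 1 ACBI-1 library in all 3 settings, and for gained regions both lie above only in DND41 at 24 h.

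To ask whether the same regions lost their peak elsewhere, the count was limited to regions that both DMSO libraries of the other line or time had. In DND41 at 24 h these were 2732 of the lost regions. Of them, 2043 (74.8%) again had no peak in either ACBI-1 library and 280 (10.25%) had one in both, where 25.6% of all such regions had none. Of the kept regions 9.44% had none. In MOLT4 at 3 h, 1085 of 2744 lost regions (39.5%) had no ACBI-1 peak, against a background of 15.2% and 5.04% of kept regions. In MOLT4 at 24 h it was 1179 of 2139 (55.1%), against 21.8% and 10.5%. Regions with a peak in 1 ACBI-1 library at 3 h lay between lost and kept ones. Of them 47.2% had none in DND41 at 24 h, 24.2% in MOLT4 at 3 h and 39.8% in MOLT4 at 24 h. Such loss elsewhere was thus not particular to the lost regions. The difference between the lines in these percentages was not tested.

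The contrast was also present at matched width. With kept regions weighted to the widths of the lost ones, 20% of them had no ACBI-1 peak in DND41 at 24 h, against 74.9% of the lost regions. In MOLT4 the values were 13.5% against 39.6% at 3 h and 21.7% against 55.2% at 24 h. The percentage was higher for lost than for kept regions in each of the 8 width bins with at least 20 regions of each class, in all 3 settings.

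**Figure D3:**
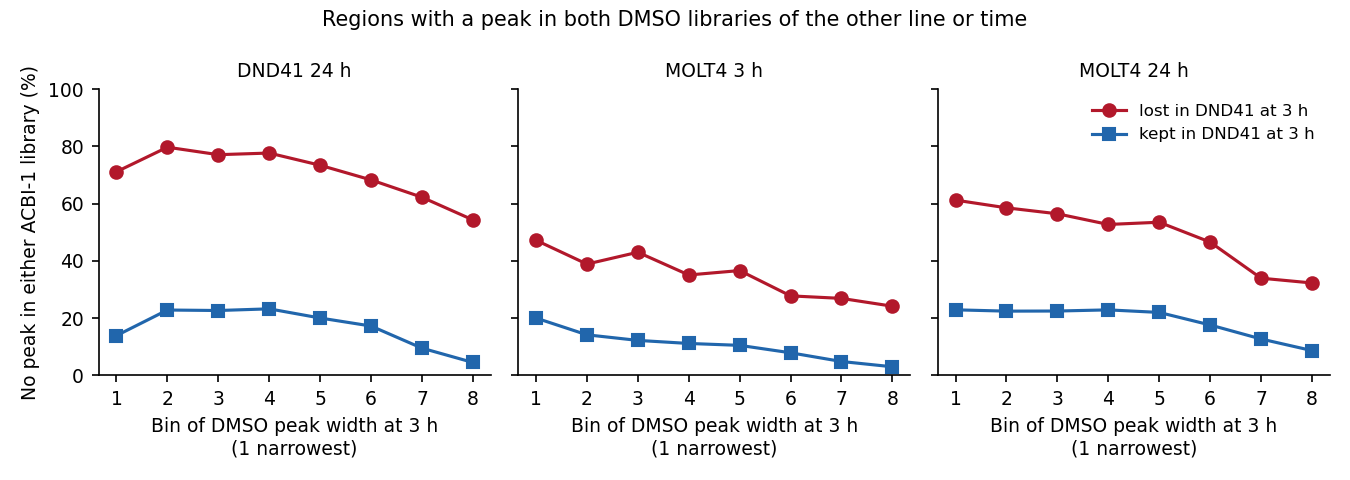
Lines give the percentage of regions without a peak in either ACBI-1 library, among regions that both DMSO libraries of DND41 at 24 h, MOLT4 at 3 h or MOLT4 at 24 h had, by bin of DMSO peak width at 3 h in DND41. Regions lost in DND41 at 3 h lie above kept regions in every bin shown, for instance at 71.1% against 13.9% in the narrowest bin of DND41 at 24 h.

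Some losses recurred in every setting, while other lost regions had no peak elsewhere or a peak in every other library. Of the 6751 lost regions, 221 (3.27%) had a peak in all 6 other DMSO and in no other ACBI-1 library. No peak in any of the 12 was found at 862 (12.8%), so a further loss could not be seen there. A peak in all 12 was found at 86 (1.27%). Among kept regions, 154 (0.790%) had the first pattern, 26 (0.133%) the second and 12057 (61.8%) the third. Regions with a peak in 1 ACBI-1 library at 3 h had the first pattern nearly as often as lost ones, at 158 of 5781 (2.73%). After their values were seen, the widest of the 221 were picked: chr10:135137746-135138420 (DMSO peaks of 675 and 405 bp at 3 h), chr2:97204347-97204925 (579 and 399 bp), and then chr7:139467274-139467761 (474 and 475 bp). In contrast 280 lost regions had a peak in all 4 libraries of DND41 at 24 h. That was 10.25% of the lost regions that both DMSO libraries there had. The share was 30.1% for regions with a peak in 1 ACBI-1 library at 3 h and 81.4% for kept regions. Beyond the ones given above, the widest of the 280 were at chr14:24476183-24476920 (738 and 605 bp) and chr6:28323551-28324300 (750 and 518 bp), also picked after the values were seen.

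Among regions that both DMSO libraries of DND41 had, of which 21.1% were lost, sites that MOLT4 lacked were lost more often. Of the 22987 such regions that MOLT4 at 3 h also had in both of its DMSO libraries, 11.9% were lost. Of the 5957 that it had in neither, 48.6% were lost. ACBI-1 replicate 1 had a peak at 77.9% and 29.8% of these sets, and replicate 2 at 84.6% and 44.9%. The sets differed in median DMSO width, 460.5 against 249 bp, but the order held within each tertile. In the narrow tertile 39.2% against 62.1% were lost, in the middle tertile 9.44% against 29.8%, and in the broad tertile 0.447% against 5.81%. Tertiles did not match the widths fully. The medians within them were 230 against 205.5 bp, 386.8 against 354 bp and 702.5 against 602 bp. These are descriptions over regions of the same 4 libraries, and no test was made.

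Runs of lost regions were short. Only 32.5% of lost regions, and 34.6% of kept ones, had a region with 2 DMSO peaks within 10 kb. Most could thus not be in a run. Among consecutive regions with 2 DMSO peaks and gaps of at most 10 kb, 6254 lost regions stood alone, 235 runs held 2 lost regions and 9 held 3. Of all regions with 2 DMSO peaks, 21.1% were lost. For regions whose nearest neighbour of this kind lay within 10 kb, that neighbour was lost for 20.4% of 2196 lost regions and for 20.1% of 6742 kept regions. The difference was 0.26 points, and 0.97 points at matched width tertiles. The direction depended on the distance and on 1 library. It was -2.78 points within 5 kb and 3.30 within 50 kb, 7.47 points without DMSO replicate 1, and -1.45 without ACBI-1 replicate 1. At under 1 kb the neighbour of a lost region was lost in 12.65% of cases and that of a kept region in 18.2%. Between 10 and 20 kb the order was the reverse, at 24.5% and 17.95%.

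**Figure D4:**
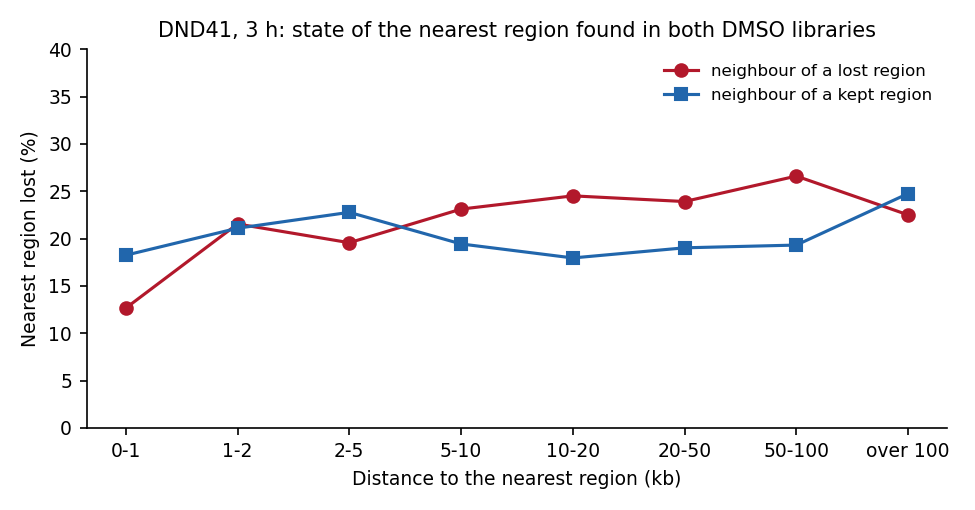
Points give the percentage of nearest regions that were lost, for lost (circles) and kept (squares) regions of DND41 at 3 h, by distance to the nearest region in kb. Both lines stay between 12.65% and 26.6% at every distance and cross.

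The 9 runs of 3 tie for the longest, and the 5 of shortest span are given here. They spanned chr3:49748947-49757293, chr12:6892026-6901493, chr12:111872783-111883023, chr11:73681168-73691458 and chr11:78051086-78062592. Mean DMSO widths of their regions ran from 145 to 538 bp. In the first of the 2 runs of chromosome 11, none of the 3 regions had a peak in any DND41 library of 24 h, while in MOLT4 2 of 3 had one in each 3 h DMSO library and none in any ACBI-1 library. In each of the other runs given, 1 region had a peak in each DND41 ACBI-1 library of 24 h, against 1 to 3 with DMSO. In MOLT4, 0 to 2 of their regions had one in an ACBI-1 library, against 0 to 3 with DMSO.

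Chromosome 19 lost 9.37% of the regions with 2 DMSO peaks, and each of the other chromosomes lost 16.1% to 24.2%. On chromosome 19, singled out after its value was seen, 92 of 982 regions were lost. Peaks there were broad, with a median DMSO width of 451.5 bp, yet its widths alone would give 14.0% from the genome-wide percentage in each bin. On the other chromosomes the observed value minus the one given by widths ran from -2.795 to 1.794 points, against -4.675 on chromosome 19. ACBI-1 replicates 1 and 2 lacked a peak at 17.8% and 13.03% of the chromosome 19 regions, against 34.7% and 25.5% over all chromosomes. In the libraries not used to choose the regions, chromosome 19 again lost less: 9.36% against 26.2% elsewhere in DND41 at 24 h, 5.26% against 15.6% in MOLT4 at 3 h and 6.95% against 22.4% in MOLT4 at 24 h. These values were not adjusted for width, so how far its broad peaks account for them was not tested. With lists of the 26145 widest peaks chromosome 19 lost 4.005% where its widths would give 7.60% and the other chromosomes lost 8.545%.

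**Figure D5:**
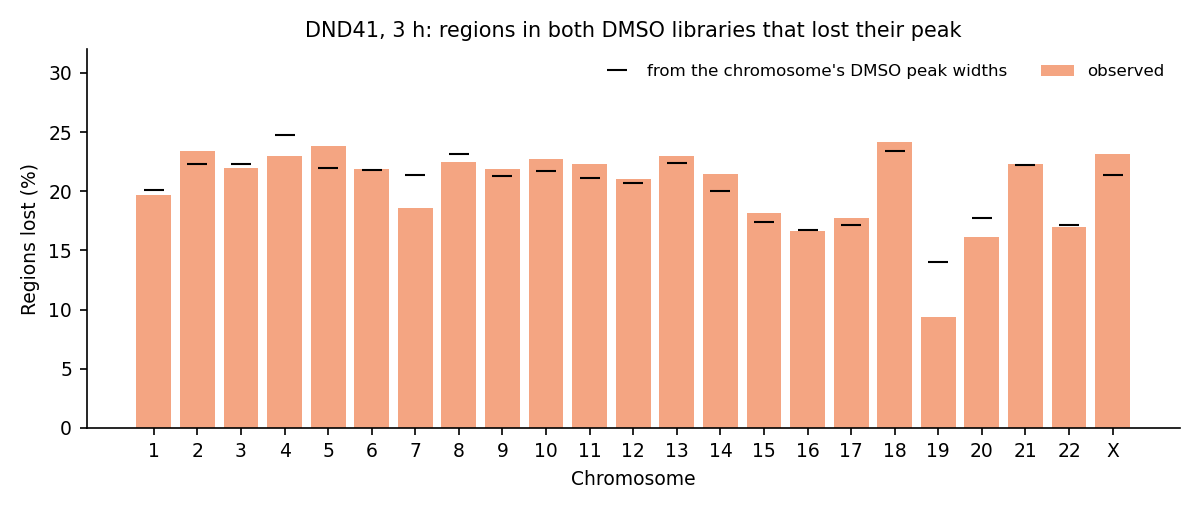
Bars give the percentage of regions with 2 DMSO peaks in DND41 at 3 h that were lost, per chromosome, and dashes the percentage that the chromosome's DMSO peak widths would give. Chromosome 19 stands lowest, at 9.37% with a dash at 14.0%.

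The 231 gained regions were few and narrow. They were 1.13% of the regions found in both ACBI-1 libraries, with median widths of 201 and 249 bp in ACBI-1 replicates 1 and 2, where kept regions had 420 and 523 bp. Regions in 1 ACBI-1 library alone were also narrow, at 175 and 205 bp for replicates 1 and 2. The nearest region with 2 DMSO peaks lay a median of 42.6 kb away, against 19.35 kb for lost and 17.2 kb for kept regions. For regions found in 1 ACBI-1 library alone that distance was 68.2 and 43.9 kb for replicates 1 and 2, and for those in 1 DMSO library alone 21.3 and 47.3 kb, so it is not particular to gained regions. Chromosome 4, singled out after its value was seen, held 31 gained regions (13.4%). It held 5.575% of kept regions, 6.70% of lost regions, 9.33% of the regions in 1 DMSO library alone and 12.1% of those in 1 ACBI-1 library alone.

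Gained regions had a peak more often with ACBI-1 in DND41 at 24 h, but the test over all 12 libraries did not pass the threshold. In DND41 at 24 h, 41.1% and 39.8% of them had a peak in the ACBI-1 libraries and 32.9% and 27.7% in the DMSO libraries, with no overlap. All 59150 regions had a peak in 40.2% and 39.4% of cases in the same ACBI-1 libraries and in 56.95% and 55.2% in the DMSO libraries, so with ACBI-1 the gained regions were found about as often as any region. In MOLT4 at 3 h the values were 18.6% and 24.7% with ACBI-1 and 24.7% and 20.8% with DMSO. In MOLT4 at 24 h they were 28.1% and 19.9% against 19.5% and 22.1%, and the arms overlapped at both times. The difference over the 12 libraries was 4.11 points (exact permutation p = 0.148, adjusted 0.148). It passed the threshold where peaks were joined by midpoints within 200 bp (6.11 points, exact permutation p = 0.00926), with a common minimum peak width (7.73 points, exact permutation p = 0.0463) and with equal lists (17.8 points, exact permutation p = 0.00926). Equal lists cannot show a gain, because shortening removed more narrow peaks from the longer DMSO lists. Of the 1011 regions gained there, 848 (83.9%) had a peak in a full DMSO list. The difference was -1.93 points without DMSO replicate 1, and 0.20 and 0.58 points without ACBI-1 replicate 1 or 2. Against kept regions, which fell, the difference was 14.99 points (exact permutation p = 0.00926, adjusted 0.0123).

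Gain by the same rule was rare elsewhere. In DND41 at 24 h, 18 of the 231 (7.79%) had a peak in both ACBI-1 and neither DMSO library, where 1.08% of all 59150 regions did. In MOLT4 it was 4 (1.73%) at 3 h, against 0.375%, and 7 (3.03%) at 24 h, against 0.842%. At the same time 36 gained regions (15.6%) had a peak in each DMSO library of DND41 at 24 h, and 53 (22.9%) had none in any of the 12 libraries. The widest gained region, chr12:75378741-75379425, had ACBI-1 peaks of 500 and 685 bp and no peak in any other library of the series. Another, chr7:95545843-95546333 (355 and 491 bp), was gained in DND41 at both times, and 3 of 4 MOLT4 ACBI-1 libraries and 2 of 4 MOLT4 DMSO libraries also had it. The region at chr4:65505822-65506504 (271 and 683 bp) was in 3 of 6 other DMSO and 3 of 6 other ACBI-1 libraries. At chr4:168609447-168610077 (246 and 631 bp) a peak was found in 5 other DMSO and 2 other ACBI-1 libraries. The region at chr3:83084043-83084510 (382 and 468 bp) had a peak in 1 other library, of DND41 with ACBI-1 at 24 h.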

How the data were processed

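The authors deposited 1 peak list per library, with 4 columns (chromosome, start, end, peak name) and no height, score or read count. The deposited positions are in base pairs, and no other unit was used. Per the submitters' processing notes the build was hg19, and the tools they list without roles or settings are MACS2 2.1.1.2016030, SAMtools, Picard and Bowtie2. Peak names carry the tag p04 at 3 h and p03 at 24 h. What it means is not stated, and time and any calling setting it stands for cannot be told apart.

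Groups came from the sample titles. Peaks were merged with Python 3.11.15 and pandas 2.3.3. A region's width in a library is the summed width of its peaks there, and width bins (10) and tertiles were formed on the mean of the 2 DMSO widths. Tests were two-sided exact permutations of the arm labels, within line and time for the 12 other libraries, with Benjamini-Hochberg adjustment over 8 tests. The code was tested on simulated lists. Alternatives were other peak filters, list lengths, joining rules and distances, a replicate block and leaving out each library.

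Named regions were the 5 widest lost and gained, the 5 kept regions that narrowed and the 5 that widened most (1 peak per library, DMSO peaks over 500 bp), and the 5 longest runs of lost regions. Members, classes and rules were chosen with earlier results of these data known. Without gene models of hg19, regions were given no gene and no sequence, and the planned gene lists were not used. Same-numbered libraries did not deviate together: over regions the correlation was -0.018 for presence and -0.11 for width at kept regions.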

Additional observations from a re-analysis of the deposited data

How the results depend on the processing

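Of 115 recomputed values, 88 held: tested values on their side of the threshold in the same direction, counts within 1.5 times, and the 3 untested differences or percentages within 1 SD of the ACBI-1 libraries taken singly. Peak number and the width of kept regions could not pass the threshold with so few libraries (smallest exact permutation p 0.333). They therefore held whenever their direction did. Keeping all sequences, or merging all 16 libraries (6610 lost, 233 gained; chosen after seeing the data), moved no result past these limits. The change of lost minus kept regions in other libraries stayed between -7.975 and -23.1 points, with an exact permutation p of 0.00926, or 0.03125 (the smallest possible) with the replicate block. The replicate block changed no call: the change of lost regions was -30.5 points (exact permutation p = 0.03125), the change of gained regions 4.11 (exact permutation p = 0.219), and the log2 ratio of peak number -0.57 (exact permutation p = 0.5, the smallest 2 pairs give). Crossing the replicate numbers, chosen after seeing the data, gave the same p of 0.5.

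A common minimum width of 159 bp gave 40.1 points for narrow minus broad and 7.73 for gained regions in other libraries, and midpoints gave 6.11 for the latter. Equal lists gave 1737 lost, 1011 gained, 8.38% lost, 20.15 points for narrow minus broad and 17.8 for gained regions. That setting cannot show a gain, for the reason given above. For neighbours the difference was -2.78 at 5 kb and 3.30 at 50 kb. The cause was not tested.

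Leaving out 1 library gave 8174 to 17383 lost, 329 to 4308 gained, 25.5 to 38.0% lost, 54.7 to 69.3 points for narrow minus broad, -0.24 to 0.0067 for log2 width of kept regions, -1.93 to 4.15 points for gained regions in other libraries, and -1.45 to 7.47 for neighbours. Fewer lists per arm let more regions qualify. Without read depth, a lost peak and a peak below detection cannot be told apart.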

Other observations

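DMSO replicate 1 of DND41 at 3 h had 10594 regions that no other library of that comparison had, 23.2% of its own, with a median width of 185 bp. They were found in 25.1% of cases in the other DMSO and 11.7% in the other ACBI-1 libraries (means over 6 libraries each), and 35.3% of them in none of the 12. DMSO replicate 2 had 5597 such regions, of which 62.5% were in none of the 12, and 10.8% and 6.52% were found on average with DMSO and ACBI-1.

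Regions in a single ACBI-1 library were found about as often in either arm elsewhere. Replicate 1 had 2811, found in 6.38% of cases with DMSO and 6.735% with ACBI-1, and replicate 2 had 4067, found in 9.76% and 9.71%. Of these, 67.3% and 57.95% were in none of the 12 other libraries.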
